A study of Mus musculus with 6 samples.

Results

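Metallothioneins are small, cysteine-rich proteins that hold zinc and copper ions and bind toxic metals such as cadmium. The 6 genes described here (MT2A, MT1X, MT1E, MT1F, MT1G and MT1M) were taken by symbol from the human table, in which 58884 rows carried a gene name. They encode the widely expressed MT2 protein and 5 proteins of the MT1 group, and all 6 had a row in the table. Of these, 5 had enough counts for a test, and MT1G did not. Per its title, the study looked for antitumour effects of Zelnorm that pass through the immune cells of the tumour. Here the question is whether the metal-binding genes of the tumour cells differed between the groups.

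RNA was sequenced from 3 Zelnorm tumours (MBZ_254, MBZ_257 and MBZ_259) and 3 control tumours (NC10, NC4 and NC9). All 6 grew under the skin of male nude mice, which lack a thymus and so most T cells, from injected DU145 cells. This human line was derived from a prostate cancer and was the only tumour cell source in the study. Per the labels' protocols, mice were assigned at random once a tumour could be felt, and Zelnorm was dosed orally each day. Zelnorm is a trade name of tegaserod, which activates the serotonin receptor HTR4. The labels give no dose or age. The titles and columns of the treated group read MBZ while its treatment label reads Zelnorm, and no label explains MBZ. The animals are not named, so p-values measure the spread between these tumour samples.

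In most tissues metallothionein genes are switched on by MTF1, a transcription factor that senses free zinc and binds metal response elements in their promoters. Glucocorticoids, lack of oxygen and oxidative stress can also raise them. In the prostate, normal luminal cells are rich in zinc, and cancer cells are known to lose much of it. In humans the genes lie next to each other in a cluster and are close copies, so reads can be hard to place between them. The submitters' notes do not say how such reads were divided, and the values of single members are uncertain to that extent.

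The human table held 24602178 to 36935816 counts per Zelnorm tumour and 25854118 to 39278195 per control tumour. The epithelial markers fitted the label. KRT8 was at 1667 to 2476 CPM (counts scaled to the effective size of the library, with TMM factors, within the human table). EPCAM was at 363 to 437 CPM. KLK3, the prostate antigen gene whose expression is known to be low in DU145, was at most at 0.0759 CPM. Genes known from host tissue also had counts in the human table. The muscle marker ACTA1 ran from 0.71 to 92.3 CPM and the fibroblast marker COL1A1 from 223 to 919 CPM in the human table, while the fibroblast marker DCN was at 0 to 0.0759 CPM there. The summed muscle markers of the human table were at 0.896 to 187 CPM in Zelnorm tumours and at 8.80 to 91.0 CPM in control tumours. Those of fibroblasts were at 264 to 969 CPM in Zelnorm tumours and at 614 to 1235 CPM in control tumours. How far reads of host metallothioneins entered the human rows was not tested. In addition, the Zelnorm tumour MBZ_259 stood apart by its heat shock genes, described further on.

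As a family, the metallothioneins had nearly the same level in both groups. The 6 members together were at 304, 269 and 271 CPM in the Zelnorm tumours MBZ_254, MBZ_257 and MBZ_259, against 242, 315 and 290 CPM in the controls NC10, NC4 and NC9. The Zelnorm tumours lay inside the range of the controls. The mean was 282 ± 19.5 CPM in Zelnorm and 282 ± 37.1 CPM in control tumours (SD, n = 3 each), and the log2 ratio of the means was -0.0032. These counts were 0.0248% to 0.0306% of a library's named human counts. MT2A took the largest part of the sum. Without MT2A, the other 5 members together were at 120 ± 13.1 CPM in Zelnorm and 124 ± 9.19 CPM in control tumours (SD, n = 3 each). Their log2 ratio was -0.047. With all 20 metallothionein rows of the table added up, the log2 ratio was 0.001, a sum that does not depend on how reads were divided among these rows.

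None of the 5 tested members passed edgeR's quasi-likelihood test, in a table where 0% of 18820 genes did. At an unadjusted p under 0.05 there were 0 of the 5 members and 1.31% of all tested genes. DESeq2 also called 0 members (0.00531% of all genes), as did limma-voom (0% of all genes). The log2 fold change was above 0 for 1 member and below 0 for 4, with a median of -0.08, against -0.0024 over all tested genes, of which 49.1% were above 0 and 50.9% below. Of the members, 1 had no overlap between the groups, as did 4.82% of all tested genes. For MT2A, MT1X, MT1E and MT1M the range within each group was wider than the difference between the group means, as the plot of CPM by tumour shows.

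**Figure D1:**
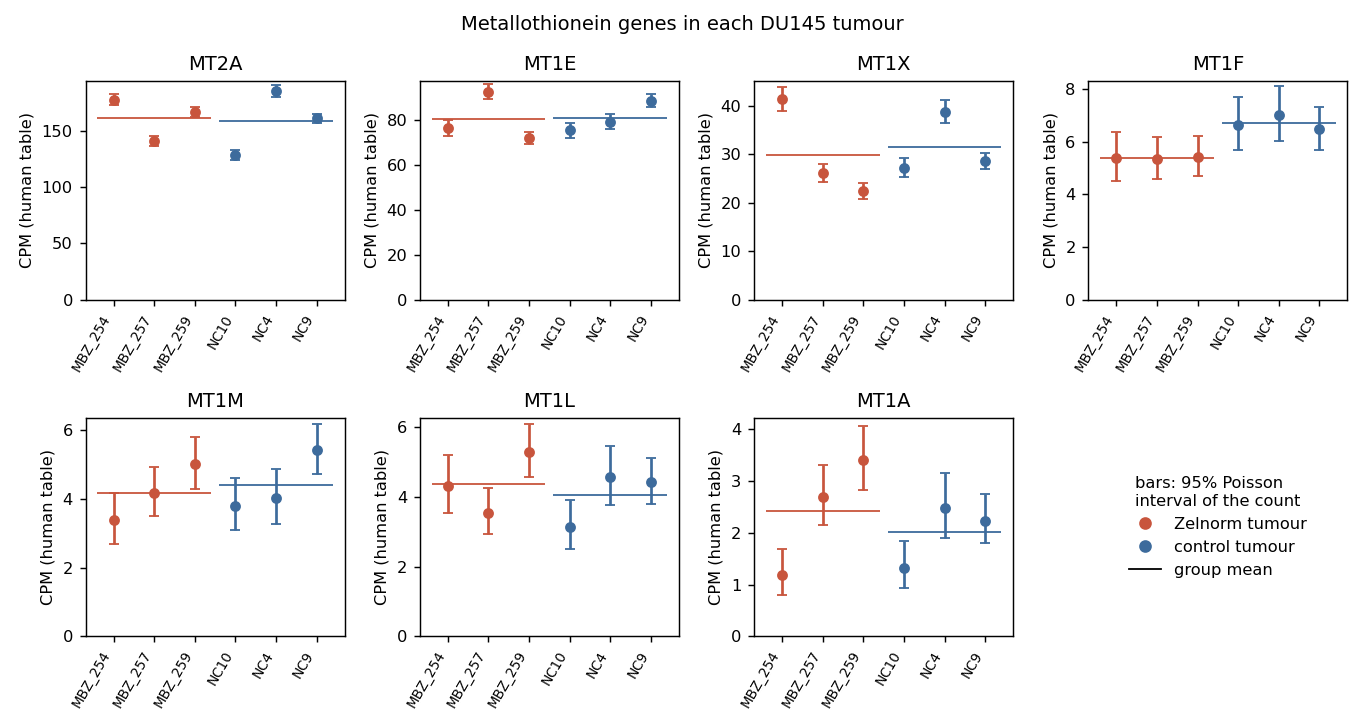
CPM of 5 tested members and of the related rows MT1L and MT1A in each tumour, Zelnorm on the left and control on the right of each panel. Bars are 95% Poisson intervals of the count, and lines are group means. In MT1F the 3 Zelnorm points lie at 5.34 to 5.43 CPM, below the 3 control points at 6.48 to 7.03 CPM, and in the other panels the groups overlap.

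MT2A (ENSG00000125148), the only MT2 gene of the set and in most human tissues the main metallothionein, was at 177, 141 and 166 CPM in the Zelnorm tumours MBZ_254, MBZ_257 and MBZ_259. In the controls NC10, NC4 and NC9 it was at 128, 185 and 161 CPM. Controls held both the highest and the lowest value, so the groups overlapped fully. The mean was 162 ± 18.9 CPM in Zelnorm and 158 ± 28.5 CPM in control tumours (SD, n = 3 each). The log2 fold change was 0.03 (SE 0.15; edgeR adjusted p = 1.00), and the 95% interval of the Zelnorm to control ratio ran from 0.805 to 1.29.

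MT1E (ENSG00000169715), an MT1 protein gene, varied least on the log2 scale among the 5 tested members. It was at 76.5, 92.9 and 72.2 CPM in MBZ_254, MBZ_257 and MBZ_259, against 75.7, 79.5 and 88.8 CPM in NC10, NC4 and NC9. Zelnorm tumours held both its highest and its lowest value. Its log2 fold change was -0.01 (SE 0.13; edgeR adjusted p = 1.00), with a ratio interval of 0.812 to 1.21.

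MT1X (ENSG00000187193), an MT1 gene also known to respond to metals, varied most among the 5. In the Zelnorm tumours it was at 41.3 CPM in MBZ_254, 26.1 CPM in MBZ_257 and 22.4 CPM in MBZ_259. In the controls it was at 27.2 CPM in NC10, 38.8 CPM in NC4 and 28.5 CPM in NC9. The Zelnorm group thus held the highest and the lowest of the 6 tumours, and its range of 0.88 on the log2 scale exceeded that of the controls, 0.51. The log2 fold change was -0.08 (SE 0.23; edgeR adjusted p = 1.00), with a ratio interval of 0.664 to 1.35. Over the 6 tumours the SD of its log2 CPM was 0.34, larger than that of 94.6% of the 5608 tested genes whose mean CPM lay within 2-fold of its own. The same share was 77.7% for MT2A, 48.3% for MT1E, 45.5% for MT1M and 26.2% for MT1F.

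MT1F (ENSG00000198417), a further MT1 protein gene, was the member with the smallest p. It was at 5.37, 5.34 and 5.43 CPM in MBZ_254, MBZ_257 and MBZ_259, against 6.64, 7.03 and 6.48 CPM in NC10, NC4 and NC9. All 3 Zelnorm tumours lay below all 3 controls, an order that 2.31% of the 18820 tested genes showed. The log2 fold change was -0.32 (SE 0.16), with an unadjusted p of 0.0758 and an adjusted p of 1.00 in edgeR and a ratio interval of 0.625 to 1.03. The difference did not pass. Leaving out each tumour in turn gave log2 fold changes from -0.34 to -0.28. The closeness of the Zelnorm values is no measure of precision: their SD was 0.042 CPM, while counting error alone gave each of them an SD of 0.388 to 0.467 CPM, from 132 to 196 counts.

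MT1M (ENSG00000205364), another gene of the MT1 group, was at 3.38, 4.17 and 5.01 CPM in MBZ_254, MBZ_257 and MBZ_259. In NC10, NC4 and NC9 it was at 3.79, 4.02 and 5.42 CPM. The groups overlapped, with MBZ_254 lowest and NC9 highest. Its log2 fold change was -0.08 (SE 0.23; edgeR adjusted p = 1.00), with a ratio interval of 0.667 to 1.35.

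MT1G (ENSG00000125144), an MT1 gene that is known to be silenced in many cancers, was at or near no counts. It had 2 counts in MBZ_257 and 0 in MBZ_254 and MBZ_259, against 1 count in NC10 and 0 in NC4 and NC9. A count of 3, taken as the limit that a count of 0 allows, corresponded to 0.0816 to 0.122 CPM in the Zelnorm and 0.0767 to 0.117 CPM in the control tumours. Every tumour lay under this limit, and no fold is given.

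**Figure D2:**
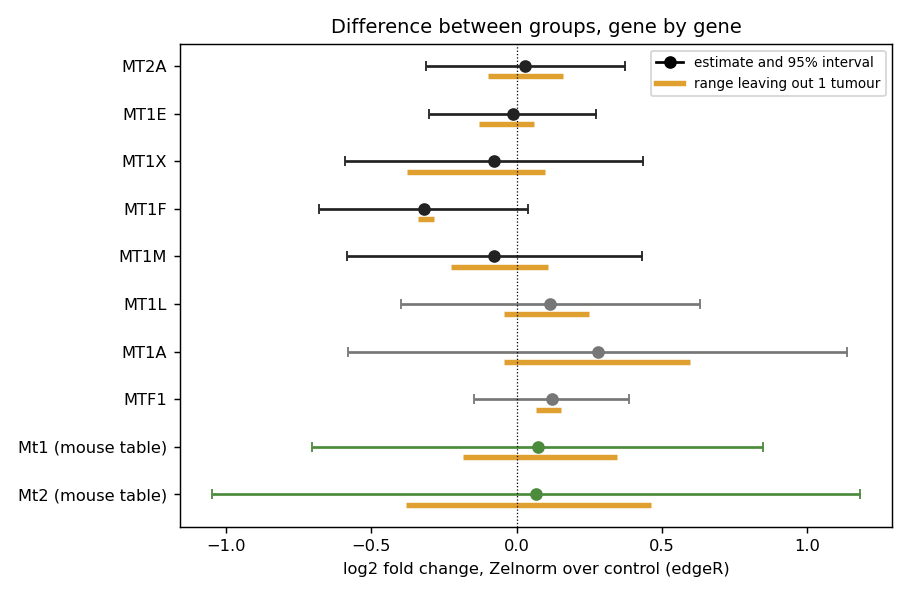
Log2 fold change of Zelnorm over control from edgeR with its 95% interval for the tested members (black), for MT1L, MT1A and MTF1 (grey) and for the host genes of the mouse table (green), fitted in each table separately. Orange bars give the range when 1 tumour is left out, and every interval includes 0.

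The human table held 14 other metallothionein rows. MT1L had 789 counts over the 6 libraries and MT1A 427, close to or under the 819 of the member MT1M. Of the 14 rows, 8 had no count in any library (MT4, MT1H, MT1HL1 and the pseudogene rows MT2P1, MT1CP, MT1DP, MT1P3 and MT1XP1). A further 2 rows, MT1B and MT1P1, had 1 count each, and 4 had 10 or more. MT3, known from brain, had 12 counts in all and was not tested.

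MT1A (ENSG00000205362), a protein gene of the MT1 group, was at 1.18, 2.69 and 3.40 CPM in MBZ_254, MBZ_257 and MBZ_259, against 1.33, 2.47 and 2.23 CPM in NC10, NC4 and NC9. Its log2 fold change of 0.28 (SE 0.38; edgeR adjusted p = 1.00) went with a wide ratio interval, 0.669 to 2.20. The spread lay within the Zelnorm group, which held both its highest and its lowest tumour. MT1L (ENSG00000260549), annotated as a pseudogene, was at 4.31, 3.55 and 5.29 CPM in MBZ_254, MBZ_257 and MBZ_259, against 3.15, 4.56 and 4.42 CPM in NC10, NC4 and NC9 (log2 fold change 0.12, SE 0.23). MT1JP, another pseudogene, had 3 to 25 counts per library and a log2 fold change of 0.15 (SE 0.66).

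The make-up of the family was also compared, as the share of each row in all metallothionein counts of a tumour. These are shares of counts and are not corrected for transcript length. MT2A took 57.3%, 51.0% and 59.2% in MBZ_254, MBZ_257 and MBZ_259, against 52.1%, 57.5% and 54.1% in NC10, NC4 and NC9. MT1E took 24.7%, 33.7% and 25.7% in these Zelnorm tumours, against 30.7%, 24.7% and 29.9% in these controls. MT1E took its largest share in MBZ_257 (95% Wilson interval 32.7% to 34.7%), the tumour where MT2A took its smallest (49.97% to 52.04%). The 2 shares are parts of one total and so are not independent. MT1X took 13.3%, 9.45% and 7.96% in MBZ_254, MBZ_257 and MBZ_259, against 11.1%, 12.05% and 9.60% in NC10, NC4 and NC9.

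Between groups, the share of MT1F was the one whose values did not overlap. It averaged 1.87% ± 0.116 in Zelnorm and 2.35% ± 0.297 in control tumours (SD, n = 3 each), a difference of -0.48 percentage points. The exact two-sided permutation p was 0.1, the smallest that 3 against 3 tumours can give, and 0.9 after Benjamini-Hochberg adjustment over the 9 rows compared. For the other 8 rows the exact permutation p was 0.2 to 1. Intervals on counts and shares cover counting error only.

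**Figure D3:**
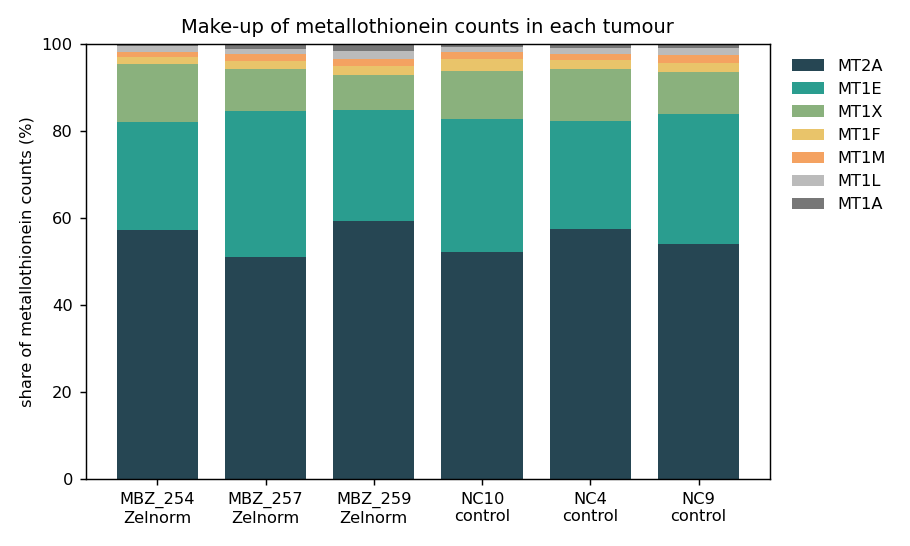
Share of each gene in all metallothionein counts of the human table (vertical axis, percent) for the Zelnorm and then the control tumours. MT2A makes up 51.0% to 59.2% of a bar and MT1E 24.7% to 33.7%, with as much variation inside a group as between groups.

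The members did not follow one common order of tumours. The highest tumour was NC4 for MT2A and MT1F, MBZ_254 for MT1X, MBZ_257 for MT1E and NC9 for MT1M. The lowest was NC10 for MT2A, MBZ_259 for MT1X and MT1E, MBZ_257 for MT1F and MBZ_254 for MT1M. MT1X and MT1A ran in opposite directions at the ends of their ranges: MBZ_254 was 0.46 above the mean of the 6 tumours for MT1X and 0.78 below it for MT1A on the log2 scale (value -0.78). MBZ_259 was at -0.42 for MT1X and 0.70 for MT1A. This pair was chosen after the values were seen.

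**Figure D4:**
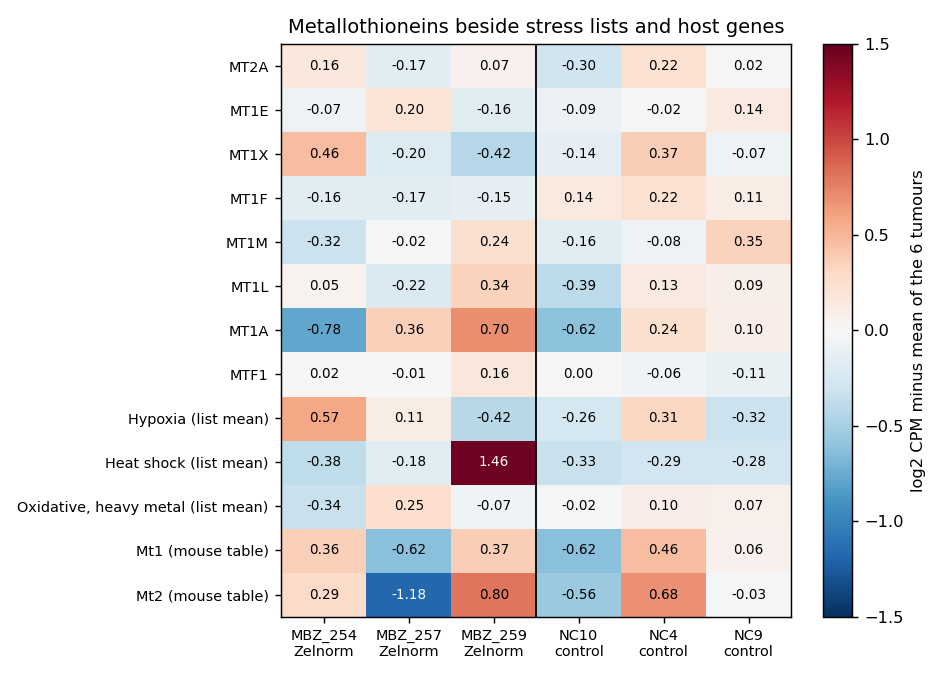
Log2 CPM minus the mean of the 6 tumours for metallothionein genes and MTF1, for the means of 3 stress lists of the human table, and for host Mt1 and Mt2 of the mouse table. The heat shock list stands at 1.46 in MBZ_259 and between -0.38 and -0.18 elsewhere, while the 5 tested members stay between -0.42 and 0.46 in all 6 tumours.

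By the rule for likeness, the human genes whose pattern came closest to the mean of the 5 tested members were CDCA4, DHTKD1, NRM, SEL1L3 and GSTO2. The root mean square difference of the centred log2 CPM over the 6 tumours was 0.029 for CDCA4 and 0.037 for GSTO2, out of 10826 genes with a mean of at least 10 CPM. That mean pattern ran from -0.11 in NC10 to 0.14 in NC4 and was thus nearly flat. The log2 fold changes of these genes lay between -0.12 (SEL1L3) and -0.06 (DHTKD1). The genes were picked for their likeness over the same 6 tumours, so fold changes near those of the mean pattern follow from the choice.

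Genes that sense and move the metals also had no call. MTF1, the zinc sensor, was at 28.8, 28.3 and 31.8 CPM in MBZ_254, MBZ_257 and MBZ_259, against 28.4, 27.1 and 26.2 CPM in NC10, NC4 and NC9. The groups overlapped narrowly, with a log2 fold change of 0.12 (SE 0.12; edgeR adjusted p = 1.00). Zinc exporters of the ZnT family, which move zinc out of the cytosol, had 0 of 7 tested genes called, 3 above 0 and 4 below. SLC30A1, the exporter of the cell surface that MTF1 also switches on, was at 57.6, 52.3 and 54.8 CPM in MBZ_254, MBZ_257 and MBZ_259, against 71.1, 44.8 and 67.3 CPM in NC10, NC4 and NC9. Its control tumours lay on both sides of the Zelnorm tumours (log2 fold change -0.15, SE 0.16). For SLC30A4 the log2 fold change was 0.22 (SE 0.17), and for SLC30A3 it was -0.13 (SE 0.24).

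Zinc importers of the ZIP family had 0 of 11 tested genes called, 5 above 0 and 6 below, and their log2 fold changes lay between -0.11 and 0.09. SLC39A14, an importer of zinc and iron, was at 114 ± 10.3 CPM in Zelnorm and 120 ± 12.8 CPM in control tumours (SD, n = 3 each). For SLC39A8, an importer of zinc and manganese, the log2 fold change was 0.09 (SE 0.15), and for SLC39A11 it was -0.11 (SE 0.14). Copper handling genes had 0 of 11 called, 8 above 0 and 3 below. Log2 fold changes were 0.12 (SE 0.14) for COX17, a copper chaperone for the respiratory chain, 0.12 (SE 0.20) for SCO2, a protein of cytochrome oxidase assembly, and 0.07 (SE 0.12) for CCS, the copper chaperone of superoxide dismutase.

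**Figure D5:**
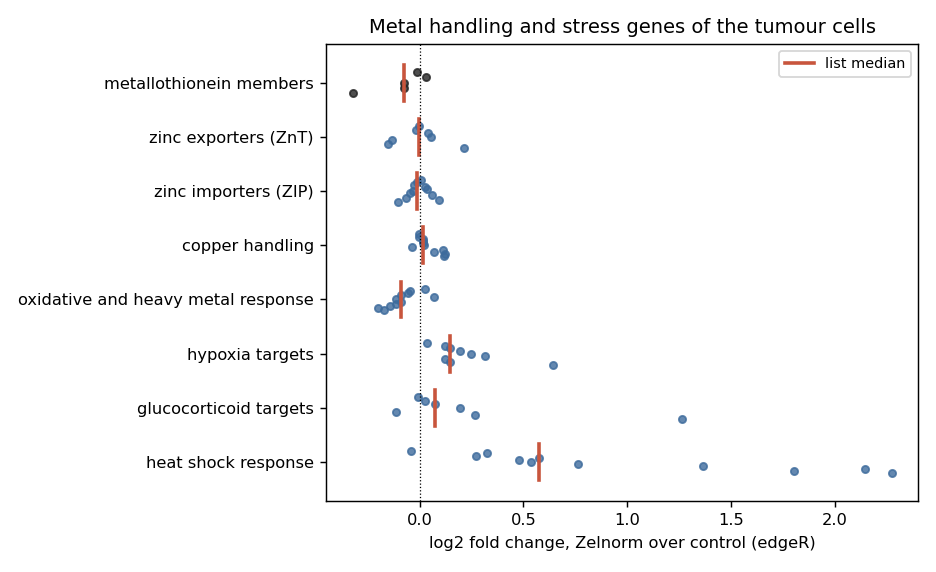
Log2 fold change of Zelnorm over control for each tested gene of the metallothionein set and of 7 lists of metal handling and stress genes, with the list median in red. Zinc and copper genes lie between -0.15 and 0.22, and the heat shock genes reach 2.27, a value carried by MBZ_259.

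The mean of the heat shock genes, which metals can induce together with metallothioneins, had a wider log2 range over the tumours than any of the 5 tested members. In MBZ_259, 10 of 11 heat shock genes had their highest value. HSPA1A, the inducible chaperone HSP70, was at 119, 120 and 1427 CPM in MBZ_254, MBZ_257 and MBZ_259, against 114, 118 and 113 CPM in NC10, NC4 and NC9, so MBZ_259 alone stood apart. Relative to the mean of the other 5 tumours the heat shock genes of MBZ_259 were 1.02 to 12.2 times as high, while the 5 tested metallothioneins were 0.690 to 1.21 times as high. DNAJB1, a co-chaperone of HSP70, reached 655 CPM in MBZ_259 and 76.9 to 89.9 CPM elsewhere. HSPA1B, a near-identical copy of HSPA1A, reached 1394 CPM in MBZ_259 and 115 to 138 CPM elsewhere. The list as a whole had 10 of 11 genes above 0 and 0 called by edgeR, and without MBZ_259 it had 7 of 11, with the log2 fold change of HSPA1A at 0.06 in place of 2.27. Without the same tumour that of MT2A was 0.01, that of MT1X 0.10 and that of MT1F -0.32.

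Hypoxia genes, which rise when oxygen is short, were highest in MBZ_254 for 8 of 9 tested genes and lowest in MBZ_259 for 8 of 9. These were also the highest and the lowest tumour of MT1X. The list mean was 0.57, 0.11 and -0.42 in MBZ_254, MBZ_257 and MBZ_259, against -0.26, 0.31 and -0.32 in NC10, NC4 and NC9, on the centred log2 scale. MT1X stood at 0.46, -0.20 and -0.42 in these Zelnorm tumours, against -0.14, 0.37 and -0.07 in these controls. In both measures MBZ_254 was first and NC4 second. This likeness was noticed after the values were seen, and its cause was not tested. Between groups, all 9 hypoxia genes had a log2 fold change above 0 (median 0.15, 0 called), among them ANKRD37 at 0.64 (SE 0.35), PDK1, a kinase that restrains pyruvate oxidation, at 0.15 (SE 0.16) and BNIP3, a mitophagy receptor, at 0.12 (SE 0.14). This direction rested on MBZ_254, without which 3 of 9 genes were above 0 and the median was -0.031. PDK1 was then at 0.015, and ANKRD37 ran from 0.38 without NC10 to 1.21 without NC4.

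Oxidative and heavy metal response genes had 0 of 11 called, 2 above 0 and 9 below, with a median of -0.09. They were lowest in MBZ_254 for 8 of 11 genes, while 1 of the 5 tested metallothioneins (MT1M) was lowest and 1 (MT1X) was highest there. The direction of the list rested on single tumours: 7 of 11 genes were above 0 without MBZ_254 and 6 of 11 without NC4. Log2 fold changes were -0.17 (SE 0.16) for GCLM, a subunit of the enzyme that limits glutathione synthesis, -0.20 (SE 0.20) for SRXN1, sulfiredoxin, and -0.14 (SE 0.22) for OSGIN1. Leaving out 1 tumour moved them from -0.34 (without MBZ_257) to -0.042 (without MBZ_254) for GCLM, and from -0.49 to -0.0073 for SRXN1 without the same tumours. OSGIN1 was at -0.44 without MBZ_257 and at 0.079 without MBZ_254. Among glucocorticoid targets 0 of 7 were called, 5 above 0 and 2 below. TSC22D3, a classical target known as GILZ, was at 23.2, 15.2 and 19.8 CPM in MBZ_254, MBZ_257 and MBZ_259, against 18.6, 16.3 and 13.6 CPM in NC10, NC4 and NC9. FKBP5 encodes a co-chaperone of the glucocorticoid receptor, and its log2 fold change was -0.11 (SE 0.12). Without MBZ_254 the count of glucocorticoid targets above 0 was 3 of 7. DUSP1, which other stresses induce too, was at 82.2, 103 and 259 CPM in MBZ_254, MBZ_257 and MBZ_259, against 61.2, 64.2 and 59.6 CPM in NC10, NC4 and NC9. All 3 Zelnorm tumours lay above all 3 controls, with MBZ_259 highest, where 4.82% of tested genes had no overlap in one direction or the other. Its log2 fold change was 1.26 (SE 0.35), with an unadjusted p of 0.00529 and an adjusted p of 1.00 in edgeR, and it was 0.59 without MBZ_259.

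The host cells of the same tumours express their own metallothioneins, Mt1 and Mt2, which were read in the mouse table. Their CPM are scaled within that table and are not set against the human values. Epithelial markers also had counts in the mouse table. Krt8 was at 719 to 1360 CPM and Krt18 at 39.9 to 101 CPM, while Cdh1 was at 0.962 to 4.95 CPM and Epcam at most at 0.740 CPM. How far reads of tumour cell metallothioneins entered the mouse rows was not tested. Both genes lie side by side on mouse chromosome 8, and their promoters are shown as a description of sequence only. The windows run from 250 bases before to 50 after the start of the gene (RefSeq, GRCm38.p6, plus strand), with the core of the metal response element in capitals, searched as TGCACNC or TGCGCNC on both strands.
Mt2, chr8:94172368-94172667: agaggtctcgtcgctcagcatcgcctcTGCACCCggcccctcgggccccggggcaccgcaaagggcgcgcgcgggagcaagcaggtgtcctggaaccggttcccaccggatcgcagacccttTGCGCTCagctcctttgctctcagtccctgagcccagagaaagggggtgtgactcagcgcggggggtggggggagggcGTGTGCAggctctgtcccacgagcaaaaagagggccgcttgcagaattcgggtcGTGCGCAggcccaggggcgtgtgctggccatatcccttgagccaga
Mt1, chr8:94178839-94179138: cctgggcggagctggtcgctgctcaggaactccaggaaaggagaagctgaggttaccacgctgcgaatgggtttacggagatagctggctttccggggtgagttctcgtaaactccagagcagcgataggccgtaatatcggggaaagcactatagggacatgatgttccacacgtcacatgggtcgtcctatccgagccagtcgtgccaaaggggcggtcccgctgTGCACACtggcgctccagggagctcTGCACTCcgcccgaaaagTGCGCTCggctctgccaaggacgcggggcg

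The Mt2 window held 4 matches and the Mt1 window 3, with no overlap between matches. Counted from the start of the gene, the matches began at -223, -128, -50 and 5 for Mt2. For Mt1 they began at -23, 3 and 21. Positions above 0 lie after the annotated RefSeq start used for the window. Where transcripts begin in these tumours was not tested, so such a match need not lie in transcribed sequence. Of all 32851 mouse promoter windows of this length in the table, 25.7% held at least 1 match, 1.97% held 3 or more and 0.52% held 4 or more. A match describes letters and is not a measured binding site. Sequences of the human members are not shown here.

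Mt1 was at 57.0, 28.9 and 57.5 CPM in MBZ_254, MBZ_257 and MBZ_259, against 28.9, 61.3 and 46.5 CPM in NC10, NC4 and NC9. Mt2 was at 45.0, 16.1 and 64.1 CPM in these Zelnorm tumours, against 24.9, 59.2 and 36.0 CPM in these controls. Both were low in MBZ_257 and NC10, one tumour of each group, and the groups overlapped. The log2 fold change was 0.07 (SE 0.34) for Mt1 and 0.07 (SE 0.48) for Mt2, both with an edgeR adjusted p of 1.00, in a table where 0% of 14459 genes were called. MBZ_257 and NC10 were also the tumours with the lowest MT2A in the human table, at 141 and 128 CPM. The related row MT1L was lowest in the same tumours, at 3.55 and 3.15 CPM. In contrast, MT1E was highest in MBZ_257, MT1X was lowest in MBZ_259 and MT1M was lowest in MBZ_254. The likeness of MT2A to the host genes was noticed after the values were seen. Host RNA was scarcest in MBZ_257, where mouse rows took 15.1% of all counts, human and mouse, against 19.2% in NC10 and 19.0% to 23.4% in the other tumours. Summed host fibroblast markers (Col1a1, Col3a1 and Dcn) were at 8441 CPM in MBZ_257 and 16954 CPM in NC10, and from 16834 to 29052 CPM in the other 4 tumours. Their part in the Mt1, Mt2 and MT2A values was not tested. In such mixed tissue, fewer cells of a type and less RNA per cell cannot be told apart.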

How the data were processed

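The authors deposited estimated counts per gene, in a human and a mouse table covering the 6 libraries. The submitters' processing notes name the builds GRCh38 and GRCm38 and the tools HISAT2 and StringTie, besides edgeR and DESeq2, with no roles. No source used here says how reads were divided between species or between near-identical genes. Of the 36 deposited values of the 6 members, 5 were not whole, and all values were rounded. Rows without a gene name (574 human, 856 mouse; at most 0.518% of a library's counts) were left out. Columns were tied to a group by their prefix and to no replicate number. Zelnorm was compared with control by the quasi-likelihood test of edgeR 4.0.16 (R 4.3.3) after filterByExpr and TMM scaling within each table, with Benjamini-Hochberg adjustment over all tested genes and calls under 0.05. Standard errors were derived from the F statistic. Centred values use log2 CPM with a prior count of 2. The fit was checked on simulated counts.

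Alternatives were RLE, upper-quartile and no scaling, no filter, DESeq2 1.42.0, limma-voom (limma 3.58.1) and leaving out each tumour. The members and gene lists were chosen with earlier results of these data known. Named genes are the members, other metallothionein rows with at least 10 counts, MTF1, up to 3 tested genes of smallest p per list, and the 5 genes most like the members. The result of 1 marker gene is not reported here.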

Additional observations from a re-analysis of the deposited data

How the results depend on the processing

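Under all 12 alternatives 0 metallothioneins were called. Over all genes edgeR without the count filter called 61 human and 2 mouse genes and DESeq2 called 1 human and 6 mouse genes, against 0 otherwise. Without the filter HSPA1A, HSPA1B, DNAJB1 and DUSP1 were among the called human genes. The log2 ratio of the summed members ran from -0.10 (without NC10) to 0.08 (without NC4). Leaving out 1 tumour turned the sign of 19 of 40 named genes: MT2A -0.098 to 0.16, MT1X -0.38 to 0.098, MT1E -0.13 to 0.060, MT1M -0.23 to 0.11, MT1A -0.044 to 0.60, MT1L -0.044 to 0.25, MT1JP -0.22 to 0.46, Mt1 -0.18 to 0.34, Mt2 -0.38 to 0.46, SLC30A3 -0.24 to 0.056, SLC39A11 -0.21 to 0.022, SLC39A8 -0.013 to 0.23, SCO2 -0.0097 to 0.29, HSPA1B -0.022 to 2.63, OSGIN1 -0.44 to 0.079, BNIP3 -0.031 to 0.23, DHTKD1 -0.13 to 0.00045, GSTO2 -0.17 to 0.0067, Slc30a1 -0.31 to 0.091. Mt2 was at -0.017 with limma-voom. MT1F kept its sign in all 12 alternatives. Its groups did not overlap, so leaving out 1 tumour could hardly turn the sign, and this adds no support. No paired analysis was possible because the columns carry no replicate number of the labels. Low counts limit MT1G, which stayed under 3 counts in every library. They also limit MT1JP, which had no value in the fit without NC9 and the fit without MBZ_259. Members that are close copies may exchange reads, and with 3 tumours a group the interval of MT1X still allows a ratio between 0.664 and 1.35.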
